A study of Caenorhabditis elegans with 2 samples.

Results

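The distal intergenic peaks of PHA-4 are the autosomal peaks of the first replicate that lie between genes and away from promoters. They were taken from the relaxed ce11 peak list of replicate 1, which holds peaks together with background, by 3 conditions. The authors' signal, the strength their list gives each peak, had to be below 9, the summit had to lie in no annotated gene of any biotype, and it had to lie more than 1000 bp from every start of a protein-coding transcript. These conditions left 814 of the 5607 peaks of the list (14.5%), or 814 of its 4178 autosomal peaks with a signal below 9. Of the others in that range, 2278 lay within 1000 bp of a protein-coding start (promoter-proximal), 569 in introns and 517 in exons, and 52 peaks met the position conditions with a signal of 9 or more. The signal and the position chose the peaks, so both are given below as a description without a test.

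The assay was ChIP-seq, the sequencing of DNA recovered with a protein by chromatin immunoprecipitation, here of eGFP-tagged PHA-4 in Caenorhabditis elegans. The material was whole late embryos, male and female pooled, of strain OP37, with genotype unc-119(ed3) III and the insertion wgIs37. There is 1 group with 2 biological replicates from separate biosamples and no comparison group, and both replicates carry the same mutation and the same transgene. The labels do not give the extent of the transgene or the cells that express the tagged protein. In whole embryos binding in few cells and weak binding in many cells cannot be told apart.

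PHA-4 is a FoxA-type forkhead transcription factor, best known as the organ selector of the pharynx, the muscular feeding organ of the worm, and also active in the gut. Forkhead proteins bind short T-rich sites, and FoxA proteins are known for binding sites in closed chromatin. Most regulatory sequence of the compact worm genome lies close to transcript starts, and distal intergenic sequence can hold enhancers, starts of non-coding RNA genes and repeats. The gene nearest to a peak is used below as an address, and it need not be a gene that the bound factor controls.

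Sequences are shown for members of high signal, for members rich in sites and for members beside pha-4, to show what the 2 recurrent elements look like in place. Each is the 201 bp window centred on the summit, 5′ to 3′ on the + strand of ce11 (WBcel235), from the RefSeq genome sequence. In the first 6, capitals mark the forkhead site, which is T, then A or G, then T, T, then G or T, then A or G, then C or T, on either strand. A site on the − strand therefore appears as its reverse complement. The windows lie at V:7978889-7979089 near let-413, II:14822495-14822695 near nhr-61, V:12815767-12815967 near ZC443.3, IV:2896464-2896664 near Y54G2A.36, II:8340314-8340514 near eff-1 and V:20745322-20745522 near dnj-25.
let-413: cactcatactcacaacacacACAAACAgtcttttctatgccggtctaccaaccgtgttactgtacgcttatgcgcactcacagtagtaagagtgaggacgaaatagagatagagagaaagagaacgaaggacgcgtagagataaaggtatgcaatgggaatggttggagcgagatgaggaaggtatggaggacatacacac
nhr-61: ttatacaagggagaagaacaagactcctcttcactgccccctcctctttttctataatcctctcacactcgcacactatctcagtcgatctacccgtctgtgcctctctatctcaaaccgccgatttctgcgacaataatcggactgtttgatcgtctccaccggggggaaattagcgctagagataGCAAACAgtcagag
ZC443.3: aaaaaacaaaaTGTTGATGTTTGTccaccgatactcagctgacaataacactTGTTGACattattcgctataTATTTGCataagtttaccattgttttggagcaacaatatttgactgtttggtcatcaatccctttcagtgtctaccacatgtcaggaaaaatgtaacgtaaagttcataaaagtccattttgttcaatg
Y54G2A.36: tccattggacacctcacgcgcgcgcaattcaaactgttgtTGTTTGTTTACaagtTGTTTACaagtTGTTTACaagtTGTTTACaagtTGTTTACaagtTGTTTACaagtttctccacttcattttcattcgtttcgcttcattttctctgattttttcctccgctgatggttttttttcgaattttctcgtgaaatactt
eff-1: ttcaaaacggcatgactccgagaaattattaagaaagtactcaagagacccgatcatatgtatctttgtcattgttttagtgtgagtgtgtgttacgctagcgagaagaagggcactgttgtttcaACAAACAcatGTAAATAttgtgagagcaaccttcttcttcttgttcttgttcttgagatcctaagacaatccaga
dnj-25: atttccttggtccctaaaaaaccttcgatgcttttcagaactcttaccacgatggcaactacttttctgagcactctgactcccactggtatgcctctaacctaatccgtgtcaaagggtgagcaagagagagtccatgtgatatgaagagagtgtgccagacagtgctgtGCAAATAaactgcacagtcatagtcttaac
The windows near let-413, nhr-61 and dnj-25 hold 1 forkhead site each, centred at −77, 90 and 74 bp from the summit. The window near ZC443.3 holds 4 sites, the nearest at −25 bp. That near Y54G2A.36 holds 7, most of them in a short tandem repeat of TGTTTAC that crosses the summit. The window near eff-1 holds 2 sites, the nearest at 29 bp.

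In the next 2 windows, capitals mark GAGAGA, or TCTCTC where it lies on the − strand, here called the GA repeat. Overlapping copies were counted separately. The windows lie at II:11635832-11636032 near din-1 and V:20750420-20750620 near pha-4.
din-1: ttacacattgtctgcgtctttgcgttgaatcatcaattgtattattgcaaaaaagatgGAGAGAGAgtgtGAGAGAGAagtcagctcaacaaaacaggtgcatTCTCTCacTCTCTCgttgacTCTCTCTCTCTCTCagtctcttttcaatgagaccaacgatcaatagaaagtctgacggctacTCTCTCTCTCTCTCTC
pha-4: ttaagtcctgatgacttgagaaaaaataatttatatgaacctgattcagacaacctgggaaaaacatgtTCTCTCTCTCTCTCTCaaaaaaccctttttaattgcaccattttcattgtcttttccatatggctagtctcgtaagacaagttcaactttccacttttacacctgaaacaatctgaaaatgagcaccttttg
The window near din-1 holds 17 copies in several tracts, and that near pha-4 holds 6 in 1 tract. The copies nearest to the summits lie at 5 and −19 bp.

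The signal of the 814 peaks ran from 2.01 to 8.96, with quartiles of 2.46, 2.95 and 3.95. The median over all replicate 1 peaks was 2.99, and over the autosomal peaks below 9 it was 2.93. Most members were therefore weak peaks, and a long thin tail reached up to the limit. The highest member had a signal of 8.96 and the lowest distal peak left out had 9.05. The nearest member lay 1005 bp from a start, and the farthest intergenic peak left out for its distance lay at 996 bp. Of the members, 774 (95.1%, 95% interval 93.4 to 96.5) had an authors' q-value of 0.05 or less, beside 93.6% of all replicate 1 peaks. At a q-value of 0.01 or less there were 547 (67.2%), beside 67.5%. These shares are near the background, and the q-value comes from the measurement that chose the members.

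**Figure D1:**
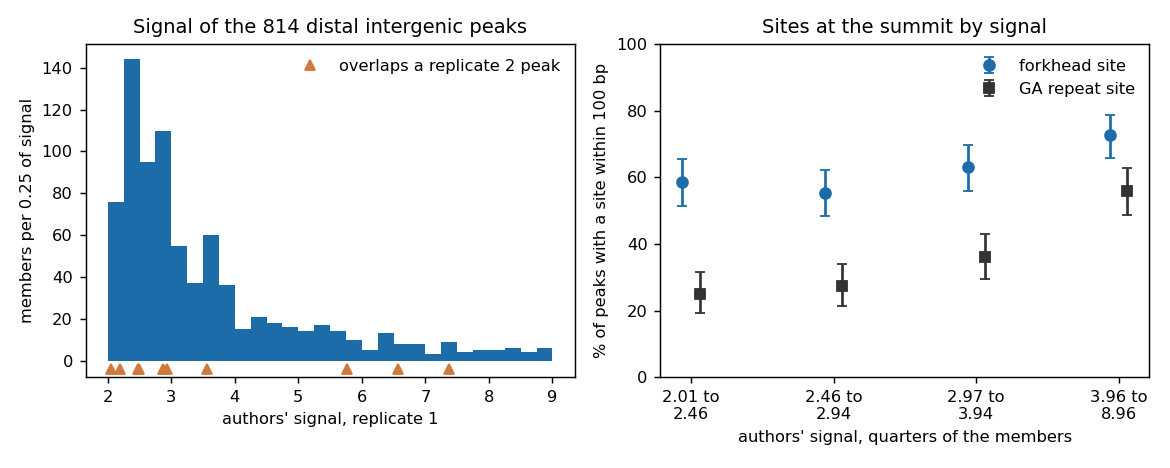
Left, number of members per 0.25 of the authors' signal in replicate 1, with triangles at the signal of the 10 members that overlap a replicate 2 peak. Right, percentage of members with a forkhead site (circles) or a GA repeat (squares) within 100 bp of the summit, in 4 groups of rising signal, with exact 95% intervals as bars. The GA repeat goes from 25.1% in the lowest group to 55.9% in the highest.

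The members of highest signal lay near genes of several kinds. The first was 1213 bp upstream of let-413, which encodes a Scribble-family protein of the basolateral side of epithelial cells, at V:7978817-7979160 with a signal of 8.96. The next, with 8.95, was 4052 bp upstream of the nuclear hormone receptor gene nhr-61 at II:14822423-14822766, in a gap of 24685 bp shared with the cadherin gene cdh-7. Another, with 8.92, was 2323 bp upstream of din-1, which encodes a corepressor partner of the nuclear receptor DAF-12, at II:11635760-11636103. Their signals were close and the error of a single signal is not known, so no weight is put on the order among them.

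Within a short stretch of chromosome III, 4 members had summits between 8125394 and 8136686. They were nearest to gei-8, which encodes a nuclear receptor corepressor (signal 8.86, 4162 bp upstream), to the ribosomal protein gene rpl-21 (4.27, 4088 bp downstream of its start), to C14B9.2 (8.46, 1083 bp upstream) and to the small heat shock protein gene hsp-12.2 (8.92, 1391 bp upstream). Those near gei-8, C14B9.2 and hsp-12.2 belong to the 12 members of highest signal. The others of the 12 were near nhr-258 (8.81), K10D11.7 (8.75), egl-26 (8.58), T28B8.1 (8.56), ZC443.3 (8.56) and Y37A1B.7 (8.47). The member nearest to nhr-258 lay in the gap that ends at sax-7, the gene of an L1-type adhesion molecule, and that near K10D11.7 lay in the gap shared with mbk-2, which encodes a DYRK-family kinase. Of the 12, the members near nhr-258, T28B8.1 and Y37A1B.7 lay downstream of the nearest start and the others lay upstream.

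The forkhead site was more frequent at the summits of the members than beside them. It lay within 100 bp of the summit in 508 of 814 members (62.4%, interval 59.0 to 65.7), beside 57.5% of all replicate 1 peaks. In flanking windows of equal width, 500 bp to either side of the same summits, it was found in 47.1% (44.7 to 49.6). Over the 79254 windows that tile all distal intergenic sequence it was found in 45.3%. The narrow form of the site, with T at the position of G or T and so a subset of the first, was found at 49.9% of summits, 35.8% of flanking windows and 33.6% of all windows. Intervals are exact Clopper-Pearson intervals and cover the counting of peaks only. The peaks come from 1 library and are not replicates, and some share sequence, since 35 members overlap another member, so no test was made across them.

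Along the profile, the forkhead site was most frequent around the summit. In bins of 50 bp centred at −50, 0 and 50 bp, 23.1%, 22.9% and 23.3% of the members had a site, against 14.9% and 16.0% in the bins at −500 and 500 bp. The fall was uneven on the left, with 19.4% at −100 bp, 17.6% at −150 bp and 19.4% (16.7 to 22.3) at −250 bp. The forms of the site had different ratios of summit to flank. TGTTGAC was found at 4.18% of summits and 1.97% of flanking windows, a ratio of 2.13, and TGTTTAC at 6.27% and 3.26%, a ratio of 1.92. TGTTTGT was the commonest form at summits, with 11.2% against 5.90%. TATTTAT, made of A and T alone, was not raised at summits, with 9.71% there (7.76 to 11.9) and 11.0% in flanking windows.

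**Figure D2:**
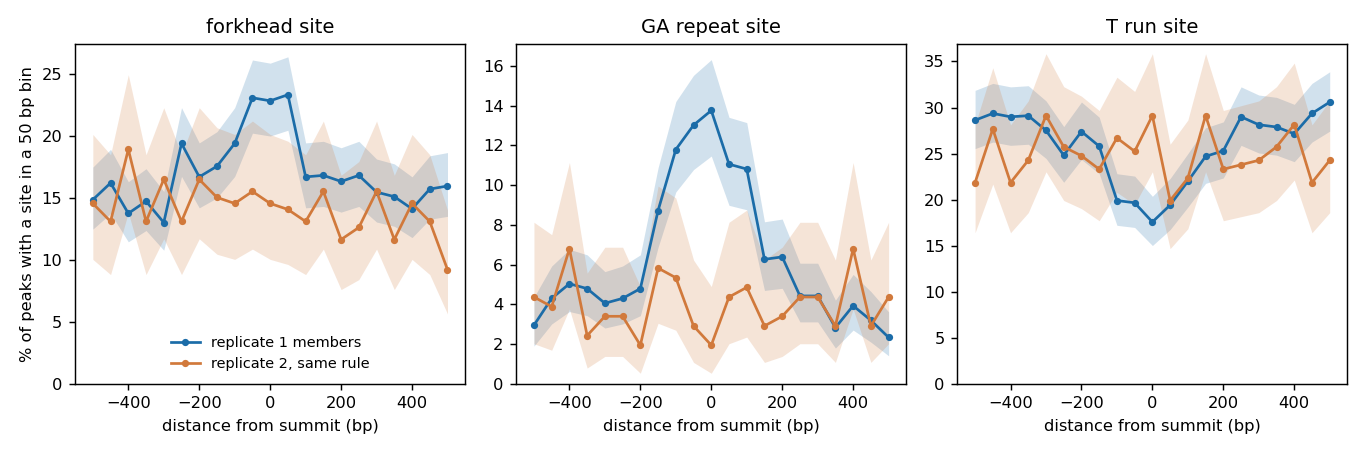
Percentage of peaks with at least 1 site in each 50 bp bin, by distance from the summit in bp, for the 814 members (blue) and the 206 replicate 2 peaks chosen by the same rule (orange), with exact 95% intervals as bands. In the members the forkhead site and the GA repeat peak at the summit and the T run dips there, and in the replicate 2 peaks no such shape is seen at the summit.

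The GA repeat differed more between summit and flank than the forkhead site did. It was found within 100 bp of the summit in 294 members (36.1%, interval 32.8 to 39.5), beside 28% of all replicate 1 peaks, in 13.3% (11.7 to 15.1) of the flanking windows and in 10.6% of all distal intergenic windows. In the central bin of the profile 13.8% of members had a copy, against 2.95% and 2.33% at the ends. A run of 6 T, TTTTTT on either strand, went the other way, with 51.2% of summits, 68.3% of flanking windows and 69.7% of all windows. Members with a GA repeat had a median signal of 3.38 and those without had 2.78. With and without a forkhead site the medians were 3.14 and 2.78.

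Base composition moved with these shares. Member summits had a mean GC content of 39.9%, flanking windows 34.1% and all distal intergenic windows 33.9%. The mean share of soft-masked (repeat) bases was 24.7% at summits, 40.5% in flanking windows and 43.6% over all windows. The part of base composition in the site shares was not tested. Other short sites differed less between summits and flanks. The E-box CANNTG was found at 60.0% of summits, 49.8% of flanking windows and 48.5% of all distal intergenic windows. The GATA site, A or T, then GATA, then A or G, was found at 34.0%, 37.0% and 35.1%, CCAAT at 32.2%, 33.3% and 33.9%, and the AP-1 site TGANTCA at 6.76%, 5.77% and 5.54%. All were sought on both strands, and a base may belong to more than 1 kind of site.

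Both the forkhead site and the GA repeat were most frequent among the members of highest signal. From the lowest to the highest of 4 groups by signal, the forkhead site was found in 58.6%, 55.4%, 63.1% and 72.5% of members, and the GA repeat in 25.1%, 27.5%, 36.0% and 55.9%. Mean GC content went from 38.3% and 38.1% to 40.6% and 42.8% over the same groups. In the 52 distal peaks left out for a signal of 9 or more, 67.3% (52.9 to 79.7) had a GA repeat and 65.4% (50.9 to 78.0) a forkhead site.

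Members with a GA repeat held the forkhead site about as often as members without one. It was found in 61.2% (55.4 to 66.8) of the 294 with a GA repeat and in 63.1% (58.8 to 67.2) of the 520 without. Both sites were found in 180 members (22.1%, against 6.27% of flanking windows) and neither in 192 (23.6%, against 45.8%). Of the members, 291 had 1 forkhead site, 150 had 2 and 67 had 3 or more. The most was 7, in the member 1130 bp upstream of Y54G2A.36, which had a signal of 2.99. Next came 5 near obr-2, an oxysterol-binding protein family gene (signal 3.02). A further 16 members tied at 4 sites, with signals from 2.14 to 8.56 and a median of 3.45. Those of highest signal among the 16 lay near ZC443.3 (8.56), T12E12.6 (7.81) and pqn-73 (6.91), and they are named by that order of signal. The 18 members with 4 or more sites had a median signal of 3.01, beside 2.95 for all members.

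Other sequence classes of the same list were compared to see where the members differ. Among peaks below 9, the forkhead site was found at 56.4% (54.3 to 58.4) of promoter-proximal summits, 54.8% of intron summits and 47.6% of exon summits, with 46.7%, 41.3% and 42.5% in their flanks. The GA repeat was found at 26.0% (24.2 to 27.9) of promoter-proximal, 26.7% of intron and 21.1% of exon summits, with 11.9%, 12.9% and 12.1% in their flanks. The members thus had a higher share of each site than these 3 classes, with intervals that do not overlap those of the promoter-proximal peaks. The member flanks held the forkhead site in 47.1%, which is also above the intron and exon flanks and close to the promoter-proximal flanks. The higher forkhead share of the members over intron and exon peaks is therefore not confined to the summits. In exon peaks the forkhead intervals of summits (43.2 to 52.0) and flanks (39.4 to 45.5) overlap, and the narrow form was found at 28.0% of summits and 29.4% of flanks. Flanks at a fixed distance from a peak can lie in genes.

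**Figure D3:**
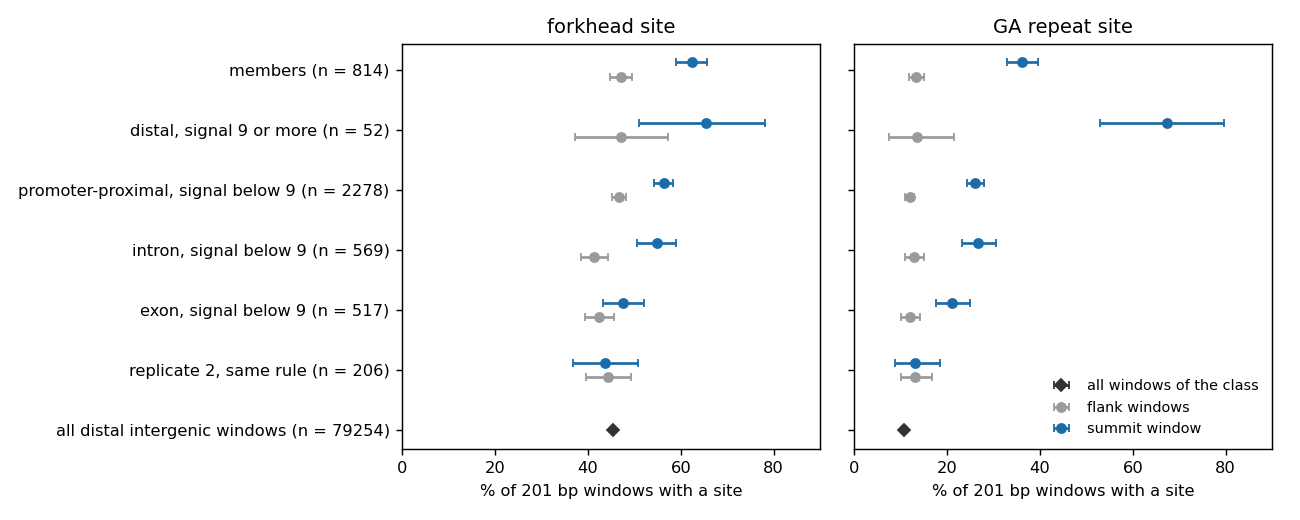
Percentage of 201 bp windows with a forkhead site (left) and with a GA repeat (right), at the summit and in windows 500 bp to either side, for the members, the other replicate 1 classes and the replicate 2 peaks chosen by the same rule. Bars are exact 95% intervals, and diamonds mark all distal intergenic windows. Member summits sit at 62.4% and 36.1%, and replicate 2 summits sit with their flanks at 43.7% and 13.1%.

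Few of these peaks overlapped a peak of the second replicate. Of the 814 members, 10 (1.23%, interval 0.591 to 2.25) overlapped a replicate 2 peak by 1 bp or more, beside 1.62% of all replicate 1 peaks, so the share was near the background. The overlap that the number and width of the peaks alone would give was not computed, so these overlaps are not a count of reproduced peaks. Only 2 members had a replicate 2 summit within 100 bp. The same rule applied to the replicate 2 list gave 206 of its 1365 autosomal peaks, with 43.7% (36.8 to 50.8) of summits holding a forkhead site against 44.4% of flanking windows, and 13.1% holding a GA repeat against 13.1%. Their mean GC content was 35.1% at summits and in flanks alike. The smallest q-value of any replicate 2 peak was 0.351, and replicate 2 peaks were 590 bp wide against 344 bp in replicate 1. The depth of both libraries is unknown.

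The members that overlapped a replicate 2 peak did not stand out by signal. By the authors' replicate 2 signal the first was near F58H1.5, with 2.94 in replicate 1 and 3.29 in replicate 2, and its replicate 2 summit lay at −208 bp. The next were near the latrophilin gene lat-1 (2.20 and 3.15), Y49G5B.1 (3.56 and 3.14) and the NudE homologue gene nud-2 (7.37 and 3.11). The remaining 6 were near tric-1B.1, K04G2.7, T02E9.5, sup-37, the small GTPase gene rho-1 and dnj-25, with replicate 2 signals from 2.08 to 2.72. The summits closest together were those near dnj-25, which lay −21 bp apart, and near sup-37, at 65 bp. The member near dnj-25 lies in the gap shared with pha-4, and the transgene of both replicates may hold part of that gap. An overlap did not require nearby summits, as those near nud-2 lay −461 bp apart and those near T02E9.5 −336 bp. Signal scaling between the libraries is not stated, so the values describe each list.

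In the pooled list, called on both replicates together, 655 members (80.5%) were overlapped by a peak. The pooled list contains the replicate 1 reads, so this is not a second measurement. The same share over all replicate 1 peaks is not given here, so 80.5% cannot be read as particular to the members. Of the authors' 9 final peaks, 0 overlapped a member. The members are 14.5% of the replicate 1 list, and the rule leaves out every peak with a signal of 9 or more. With so few final peaks this count says little about the members.

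Distal intergenic sequence held as many of the weaker peaks as its length would give. It makes up 19.3% of autosomal bases (15.9 Mb) and held 19.5% (18.3 to 20.7) of the autosomal replicate 1 peaks below 9, a ratio of 1.01. For promoter-proximal sequence the ratio was 1.28, for introns 0.660 and for exons 0.710. In replicate 2 the order was another, with ratios of 0.782 for distal intergenic, 1.05 for promoter-proximal, 0.791 for intron and 1.38 for exon sequence.

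Within distal intergenic sequence the members were not spread evenly. The density was 51.1 members per Mb in all, counted over the bases that meet the position conditions. It was 62.0 per Mb (interval 53.3 to 71.7, exact Poisson) at 1001 to 1500 bp from the nearest start, 50.7 at 2001 to 3000 bp, 44.3 at 5001 to 10000 bp and 21.3 (11.4 to 36.5) beyond 10000 bp, where 13 members lay. The median distance was 2512 bp, and the median gap between the flanking genes was 7023 bp. The members lay upstream of the nearest start in 610 cases (74.9%, interval 71.8 to 77.9), while 66.8% of the eligible bases are upstream.

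The arrangement of the flanking genes went with the density. Between genes that point away from each other (divergent) there were 288 members at 57.9 per Mb, and between genes that point the same way (tandem) 461 at 54.2. Between genes that point towards each other (convergent), where the coding genes end rather than start at the edges of the gap, there were 65 at 26.7 (20.6 to 34.0), which is 8.0% of the members on 15.3% of the bases. The share with a forkhead site was 63.2% in divergent, 62.7% in tandem and 56.9% (44.0 to 69.2) in convergent gaps, with overlapping intervals.

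**Figure D4:**
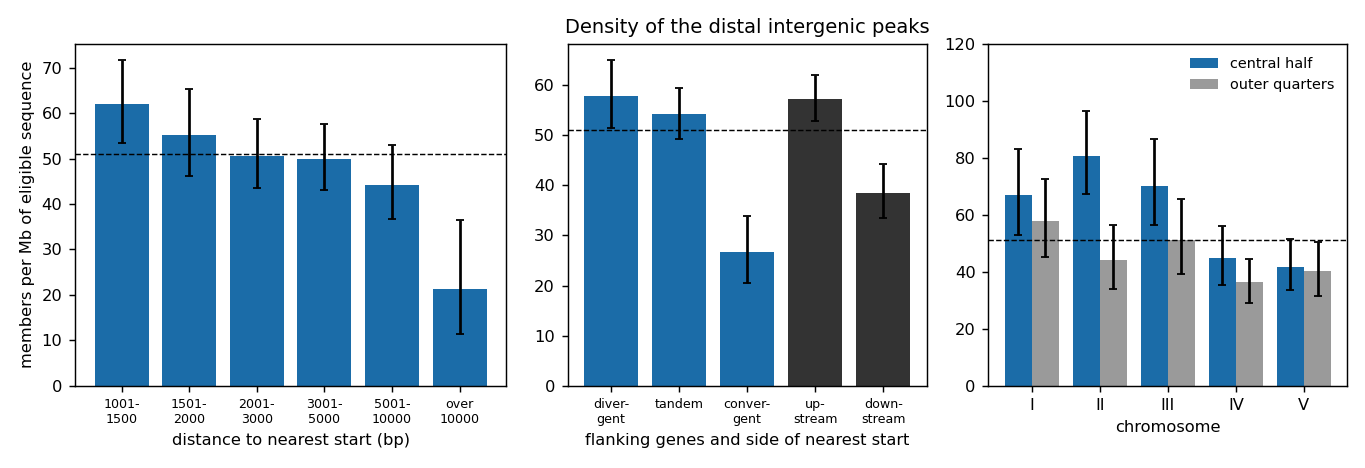
Members per Mb of sequence that meets the position conditions, by distance to the nearest protein-coding start in bp (left), by arrangement of the flanking genes in blue and side of the nearest start in black (middle), and by chromosome, for the central 50% (blue) and the outer 25% at each end (grey, right). Bars start at 0, error bars are exact 95% Poisson intervals, and the dashed line is the density over all of it, 51.1 per Mb. Convergent gaps, at 26.7 per Mb, and distances over 10000 bp, at 21.3, lie below the line with their whole interval. So do sequence downstream of the nearest start, at 38.5, and the outer parts of chromosomes IV, at 36.2, and V, at 40.2.

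Chromosomes I, II and III had 62.2, 63.0 and 60.9 members per Mb, and chromosomes IV and V had 39.8 and 41.0, with intervals that do not overlap between II (54.3 to 72.7) and V (34.9 to 47.9). The central 50% of the autosomes had 58.6 per Mb and the outer 25% at each end 44.0. The contrast was widest on chromosome II, with 80.8 against 44.2, and on chromosome V the values were 41.8 and 40.2. The GA repeat was found in 44.1% of the members on chromosome I and in 43.7% on IV, and in 28.9% on V. The forkhead site varied less, from 59.2% on I to 64.7% on IV.

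Many members lay near a start of a non-coding gene, which the rule allows as long as the summit is in no gene. Unclassed ncRNA genes had a start within 1000 bp of 172 members (21.1%, on 11.8% of the eligible bases). For snoRNA genes, whose products guide chemical modification of other RNAs, it was 23 members (2.83% on 0.624% of bases). For tRNA genes it was 14 (1.72% on 0.666%) and for microRNA genes 13 (1.60% on 0.639%). For piRNA genes, which lie in dense clusters on chromosome IV, it was 56 (6.88% on 12.8%), and for pseudogenes 28 (3.44% on 6.17%). The snoRNA and microRNA examples that follow were chosen after their values were seen.

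Near snoRNA genes the summits were concentrated just upstream. In the 100 bp upstream of a snoRNA start there were 9 members, 1475 per Mb (675 to 2801), against 1 member for tRNA genes and 0 for microRNA genes, where the exact interval reaches 627 per Mb. The highest signals of these 9 were 8.56 at T28B8.11, with the summit at −79 bp, 8.11 at F25H2.15, at −51 bp, and 5.58 at H09I01.2, at −89 bp. Summits inside a gene were left out by the rule, and summits just past a short gene fall outside the upstream window. The closest summits past tRNA starts lay at 95, 97, 97, 128, 135 and 183 bp. Past snoRNA starts they lay at 120 and 141 bp, and past microRNA starts at 143 and 180 bp. The largest microRNA signals were at mir-52 on chromosome IV, where 3 of the 4 members assigned to the distant Y37A1B.7 had signals of 8.47, 7.64 and 6.72, with summits at −997, 143 and −495 bp from the mir-52 start. At mir-238 on chromosome III 2 members had signals of 6.19 and 3.21, at −109 and −693 bp. All 5 summits lay closer to the microRNA gene than to any protein-coding start.

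Some gaps held several members. Another replicate 1 summit lay within 2000 bp of 283 members (34.8%, interval 31.5 to 38.2), beside 31.1% of all replicate 1 peaks. The members were nearest to 686 genes, of which 588 had 1 member, 80 had 2 and 18 had 3 or more. The most were at dmd-6, a gene of the DM domain family, with 7 members in a gap of 35563 bp on chromosome IV. Their summits spanned 11873 bp, from 14599409 to 14611282, and their signals ran from 2.27 to 5.58. Of the 7, 4 had a forkhead site and 1 had a GA repeat.

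Genes with 4 members were F54F12.1, F58H1.5, T24B8.4, T25D10.4, Y37A1B.7, dnj-25, egl-27 and the ribosomal protein gene rps-28. Genes with 3 were R02D5.24, R10E12.2, W04D12.1, din-1, the dystrobrevin gene dyb-1, kin-36, nhr-258, nhr-61 and the polo-like kinase gene plk-2. The 3 members at plk-2 each had both sites, with 3 of 3 for the forkhead site and 3 of 3 for the GA repeat. The 4 at F54F12.1 had a forkhead site in 1 and a GA repeat in 0, with signals up to 6.46.

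The members farthest from any protein-coding start were 2 of those at dmd-6, 17194 and 16960 bp upstream with signals of 4.46 and 2.91. Then came Y23H5B.5, with a member 16275 bp downstream of the start (5.07), and F40D4.17, with 16272 bp (2.27). The summit of the Y23H5B.5 member lay at −98 bp from the start of the snoRNA gene Y23H5B.10, so it is far from coding starts only. The fifth lay 13436 bp downstream of the start of egl-4, a cGMP-dependent protein kinase gene, in the gap that ends at the GATA factor gene egl-18, with a signal of 5.03, 3 forkhead sites and 4 GA repeats.

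The gap of 8705 bp between pha-4 itself and dnj-25, the auxilin gene, held 6 members. Those nearest to pha-4 lay 2532 bp upstream, with a signal of 4.39, no forkhead site and 6 GA repeats, and 1600 bp upstream, with 2.47 and neither site. Those nearest to dnj-25 lay 1076, 2498, 3099 and 3870 bp upstream of it, with signals of 6.56, 3.77, 4.67 and 4.45. Forkhead sites were found in 3 of these 4. The strain carries a pha-4 transgene, and the labels do not say whether it holds any of this sequence. If it does, reads from the transgene and from the genomic copy cannot be told apart.

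Genes of developmental pathways were counted by lists, beside the 686 of 8845 autosomal protein-coding genes (7.76%) that are nearest to a member among those with any eligible sequence. Of 12 epidermal genes with such sequence, 4 were nearest to a member. They were let-413, the cell fusion gene eff-1 with 2 members (5.46 at 6270 bp upstream and 4.98 at 2544 bp upstream), and the cuticle collagen genes sqt-3 (2.54) and rol-6 (2.27). Of 16 neuronal identity factors there were 4, namely the LIM homeobox gene lim-7 (4.59), the neurogenin gene ngn-1 (3.57), the Otx-type gene ttx-1 (2.81 and 2.54) and the NeuroD-type gene cnd-1 (2.53). These counts are small and describe the lists, and no test of a difference from the other genes was made.

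Of 10 forkhead factor genes, 3 were nearest to a member. Beside pha-4 these were unc-130 (4.07, 6413 bp upstream, 2 forkhead sites) and the FoxO gene daf-16, with 2.94 at 4596 bp downstream of its start and 2.06 at 1825 bp upstream. Of 9 Wnt pathway genes there were 2, mig-14, which is needed for Wnt secretion, with 8.27 at 2145 bp upstream, and the ligand gene cwn-2 (2.30). Of 14 Sox and T-box genes there were 2, sem-2 (2.99) and tbx-11 (2.54). The Hox gene egl-5 had members 7829 bp upstream (4.33) and 5666 bp downstream of its start (3.67), and egl-27, listed with the GATA factors, had 4 members from 2.75 to 4.44, all upstream.

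Pharynx genes were counted in the same way. Of 10 pharynx regulators only pha-4 was nearest to a member, and of 8 pharynx structural genes none was. Counted as the coding gene on either side of a member, there were 2 pharynx regulators, 1 pharynx structural gene, 1 body muscle gene and 0 Notch pathway genes. In lists this short a count of 0 says little. None of 11 body muscle genes and none of 9 Notch pathway genes was nearest, and of 11 intestinal genes only the intermediate filament gene ifb-2 was (3.72, 1589 bp upstream). Among larger families, 17 of 162 nuclear hormone receptor nhr genes with eligible sequence were nearest to a member, 5 of 70 collagen col genes, 5 of 116 lectin clec genes, 4 of 30 homeobox ceh genes, 2 of 19 ribosomal protein genes, 1 of 42 nlp genes and 1 of 31 ins genes. None of 13 hlh genes and none of 16 flp genes was, though 3 hlh genes and 1 flp gene flanked a member. Over all lists it was 53 of 604 (8.77%), near the 7.76% of all genes.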

How the data were processed

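The data are narrow-peak lists of 2 ChIP-seq replicates in build ce11, and lists in ce10 were not used. Each deposited peak carries the authors' signal, a value per peak whose scaling between libraries is not stated, a −log10 q-value and a summit. Neither the aligner nor the peak caller is named in the sources used here. Depth is unknown, as the lists carry no read counts, and intervals cover counting error only. No test was made, since each result describes 1 library.

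Summits (peak start plus summit offset, 1-based) were placed on the Ensembl release 115 annotation of WBcel235, the same build as ce11. A summit within 1000 bp of a protein-coding transcript start was promoter-proximal, and otherwise exon, intron or distal intergenic. Sites were sought on both strands within 100 bp of the summit and in windows centred 500 bp to each side. Overlap meant 1 bp or more. Densities used the autosomal bases that meet the position conditions. Percentages have exact Clopper-Pearson 95% intervals.

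Genes were named by a rule: the 12 members of highest signal, those overlapping a replicate 2 peak, the 5 farthest from a start, those nearest to genes of 12 lists (up to 6 per list with values), genes with 3 or more members, and the 5 members with most forkhead sites, with ties ordered by signal. The members, lists and sites were chosen with earlier results of these data known, and the short sites other than the forkhead site after the sequences were seen. The site search and the rule were checked on simulated data. Python 3.11.15, numpy 2.4.6, pandas 2.3.3, scipy 1.17.1 and matplotlib 3.10.9 were used.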

Additional observations from a re-analysis of the deposited data

How the results depend on the processing

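Of 63 recomputed values, 39 stayed within the interval of the reported value (counts within 1.5 times) and 24 moved. No paired analysis was possible because there is 1 group only. The count of members was 498 at over 2000 bp from a start, with a density ratio of 0.931. Applying the rule to replicate 2 alone gave 206 members, a density ratio of 0.782, forkhead shares of 43.7% at summits and 44.4% in flanks, a difference of −0.728 points against the reported 15.3, a GA repeat share of 13.1%, and 5.34% overlapping a replicate 1 peak. With q-values of 0.01 or less the forkhead difference was 18.8 points and the GA repeat share 41.9%. In the pooled list the forkhead share was 57.9%, the GA repeat share 30.7%, and 3.80% overlapped a replicate 2 peak. Within 50 bp the forkhead share was 40.2% at summits and 27.4% in flanks, and the GA repeat share 22.7%. Within 150 bp they were 74.1%, 60.7% and 44.0%. The narrow site gave 49.9%, and flanks at 1000 bp gave 44.3%. With summits required within 100 bp, 0.246% matched replicate 2. Counting both flanking genes gave 84 list genes. The cause of the difference between the replicates was not tested. The GA repeat settings were chosen after seeing the data.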

Other observations

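Members in sequence that is mostly soft-masked, and so annotated as repetitive or of low complexity, were few and weak. In 90 members (11.1%) at least 50% of the summit window was soft-masked, against 34.2% of flanking windows and 37.3% of all distal intergenic windows. These 90 had a median signal of 2.58, against 3.02 in the other 724. A forkhead site was found in 52.2% (41.4 to 62.9) of the 90 and in 63.7% (60.1 to 67.2) of the others, and a GA repeat in 22.2% (14.1 to 32.2) and 37.8% (34.3 to 41.5). The part of repeats in these shares was not tested.

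Copies of the GA repeat were gathered in few members. Of the 294 members that had one, 138 had a single copy and 10 had 10 or more. The most was 77, in a member 4956 bp upstream of nhr-88 with a signal of 3.37, which was chosen after its values were seen. In that window 84.1% of the bases were soft-masked. Overlapping copies were counted separately, so the number of copies also reflects the length of a tract.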
